A study of Mus musculus with 16 samples.

Results

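Hearts of aged Hap-I mice kept on a western diet were compared with hearts of adult C57 mice across all measured genes. The comparison used 8 of the 16 sequenced libraries: 5 of aged Hap-I western-diet hearts and 3 of adult C57 hearts, which the design text counts as animals. Of 30153 genes in the table, 11415 reached 1 TPM (a length-normalised transcript abundance) in at least 3 of the 16 libraries and were kept. Hap-I mice carry, on the C57/BL6 strain, a transgene with haplotype I of the human gene for the angiotensin II type 1 receptor, and this group was aged and ate a western diet, which is rich in fat and sugar. The adult C57 mice are C57/BL6 mice of unstated diet without that haplotype. Both groups share the C57/BL6 strain. Genotype, age and diet differ together between them, and their parts in any difference cannot be told apart. The groups also differ in how many hearts held Y-linked transcripts, given below. The other 8 libraries, 4 of aged Hap-I hearts with no stated diet and 4 of younger Hap-I hearts labelled as western diet, entered the estimate of each gene's spread. The labels give no sex, age in months, diet composition, litter, batch or hour of collection.

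Angiotensin II acts through its type 1 receptor on heart muscle, fibroblasts and vessel walls, where it raises contraction, growth and matrix production. Heart muscle gets most of its ATP from fatty acids burned in mitochondria, and many of its transport and metabolic genes follow a daily rhythm set by the circadian clock. A loaded heart commonly turns genes of the fetal programme back on, among them natriuretic peptides and skeletal actin.

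Several libraries stood apart in ways that the labels do not name. Y-linked transcripts summed to 0.183, 0.289 and 0.399 scaled TPM in aged Hap-I western-diet replicates 1, 2 and 3, and to 35.4 and 23.4 in replicates 4 and 5, against 29.4, 35.3 and 18.7 in the adult C57 hearts. Scaled TPM are TPM divided by a size factor per library, which ranged from 0.682 to 1.24 over the 16 libraries. Atrial muscle markers were high in adult C57 replicates 1 and 3 only among the 8 hearts, and these values are given with the marker lists. The mitochondrial genome supplied 37.2% to 45.9% of all TPM in aged Hap-I western-diet hearts and 31.1% to 40.3% in adult C57 hearts, a difference of means that an exact two-sided permutation test did not call (p = 0.179, smallest possible 0.0357). Between 9896 and 11041 genes reached 1 TPM in aged Hap-I western-diet hearts, and between 10216 and 10586 in adult C57 hearts. The markers that define ventricular muscle were high in all 8 libraries, so the tissue matched its label. The files give no counts, so the depth of each library is unknown. In heart samples of mixed cell types, fewer cells of a type and less RNA per cell cannot be told apart.

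In aged Hap-I western-diet hearts 1404 genes were higher and 1092 were lower than in adult C57 hearts (limma, adjusted p under 0.05). These calls were 21.9% of the 11415 genes, with 12.3% called higher and 9.57% called lower, and these shares are the background for each list below. Of the called genes, 125 were higher and 93 lower by 2-fold or more, and the libraries of the groups did not overlap in 2075 of them. Non-overlapping groups occurred in 23.4% of all genes. Over all genes the log2 fold change had a median of -0.0014. Across genes the fold changes ran weakly with transcript length (rank correlation 0.178), and 2432 genes were called with length corrected for. Of those, 1284 were higher and 1148 lower, and 2119 were also called without the correction. Without scaling between libraries the split turned, to 282 genes higher and 332 lower. The counts also rested on single adult C57 libraries: 1371 genes were called without replicate 1 and 1256 without replicate 3. In the 5 libraries with Y-linked transcripts, 2 aged Hap-I western-diet and 3 adult C57 (fitted with the other such libraries of the series), 494 genes were called higher and 359 lower.

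**Figure D1:**
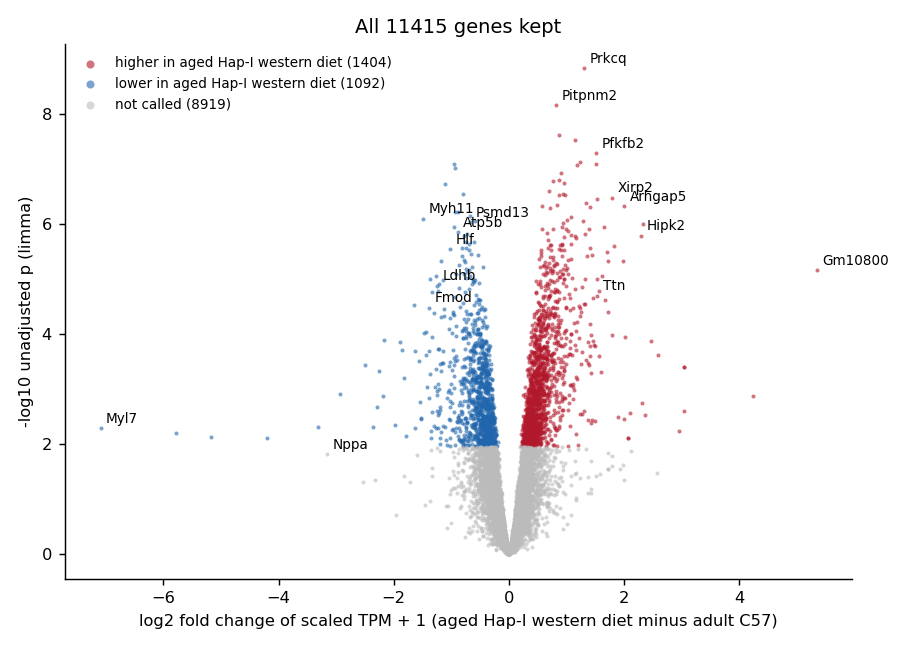
Each point is 1 of 11415 genes; the horizontal axis is the log2 fold change of scaled TPM + 1, aged Hap-I western diet minus adult C57, and the vertical axis is -log10 of the unadjusted limma p. The 1404 genes called higher are red, the 1092 called lower are blue, and Myl7 (-7.09) and Gm10800 (5.34) lie farthest out.

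Most genes with the smallest p were higher in aged Hap-I western-diet hearts. Prkcq, which encodes protein kinase C theta, had 5.0, 4.78, 5.38, 4.58 and 5.35 scaled TPM in aged Hap-I western-diet hearts, against 1.3, 1.67 and 1.32 in adult C57 hearts. Every aged Hap-I western-diet heart was above every adult C57 heart. The rise was 2.48-fold on the scale of scaled TPM + 1, which understates changes at such low levels (log2 fold change 1.31 ± 0.10 SE, limma adjusted p = 1.66e-05). Its locus is on chromosome 2 from 11172108 to 11301222 of GRCm38. Pitpnm2, a phosphatidylinositol transfer protein, had 9.16, 8.73, 9.45, 9.4 and 9.93 scaled TPM in aged Hap-I western-diet hearts, against 4.98, 4.69 and 4.95 in adult C57 hearts (log2 fold change 0.81 ± 0.072 SE, limma adjusted p = 3.87e-05). The spread within each group was narrow, with SD of 0.438 in aged Hap-I western-diet hearts and 0.161 in adult C57 hearts. Mtss1l, a membrane-bending protein, Ice1, a subunit of the little elongation complex that transcribes small nuclear RNAs, Adamtsl5, a matrix microfibril protein, and Nfix, a transcription factor of muscle development, rose with groups that did not overlap. Nfix averaged 26.4 ± 3.03 scaled TPM in aged Hap-I western-diet hearts and 11.1 ± 1.37 in adult C57 hearts (SD, n = 5 and 3), and its log2 fold change was 1.18 ± 0.13 SE. Cds1, which makes the phospholipid precursor CDP-diacylglycerol, averaged 6.73 ± 1.44 scaled TPM in aged Hap-I western-diet hearts and 1.7 ± 0.551 in adult C57 hearts (log2 fold change 1.52 ± 0.16 SE, limma adjusted p = 0.000108). kallisto assigns reads by words of 31 bases, and a level counted as uncertain where over 20% of a gene's words also occur in other genes. Among the named genes below that share, Hipk2, a stress-activated nuclear kinase, rose most: it had 9.7, 12.5, 12, 12.8 and 4.61 scaled TPM in aged Hap-I western-diet hearts, against 0.996, 1.54 and 1.1 in adult C57 hearts (log2 fold change 2.29 ± 0.31 SE, limma adjusted p = 0.000337). Replicate 5 was the lowest of the aged Hap-I western-diet hearts and still lay above every adult C57 heart. Arhgap5, a GTPase-activating protein, had 6.65, 6.16, 6.34, 6.44 and 3.94 scaled TPM in aged Hap-I western-diet hearts, against 0.37, 1.47 and 0.465 in adult C57 hearts (log2 fold change 2.0 ± 0.24 SE, limma adjusted p = 0.000201).

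**Figure D2:**
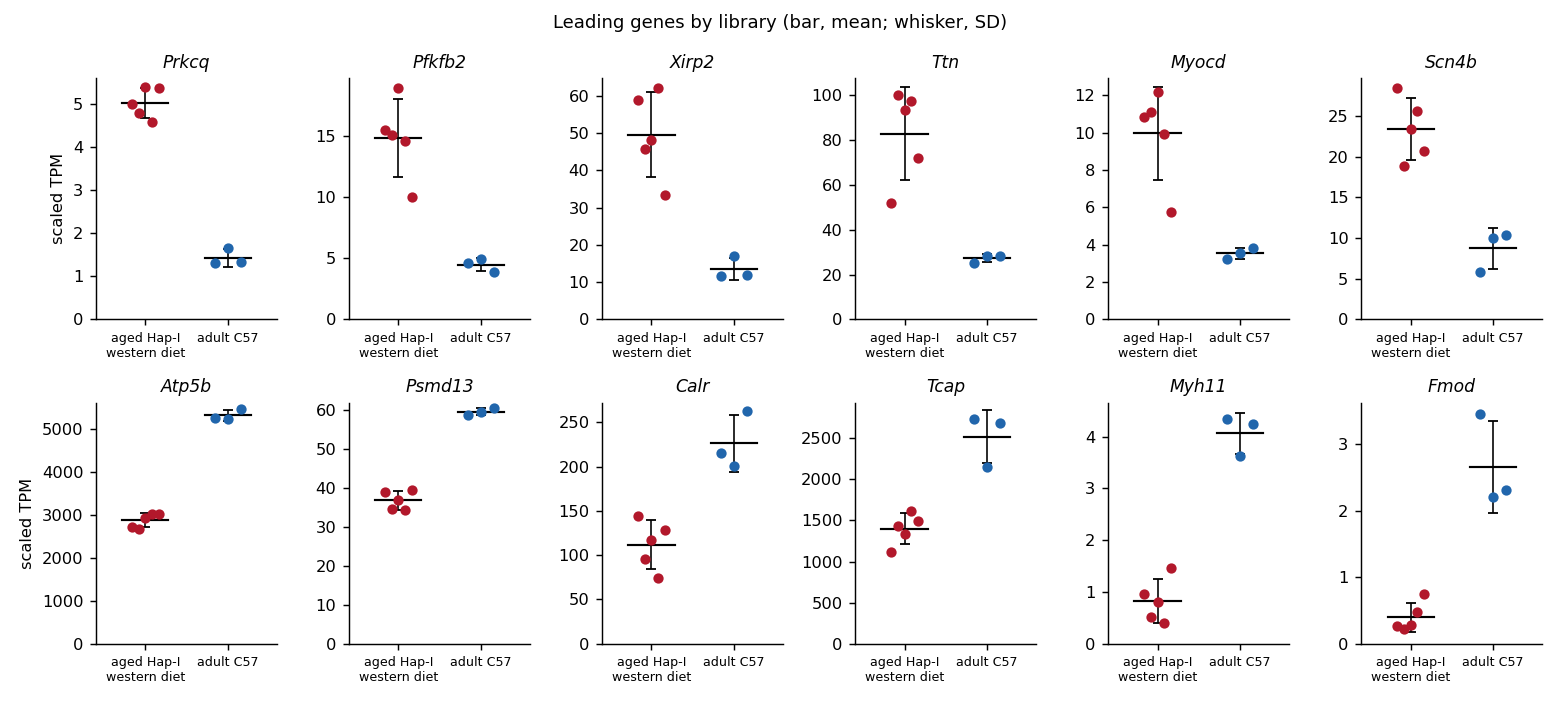
Scaled TPM of 12 genes in each library, with aged Hap-I western diet (n = 5) left of adult C57 (n = 3); horizontal bars are means and whiskers SD. In the upper row every aged Hap-I western-diet heart lies above the adult C57 hearts, and in the lower row below them.

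Titin and the disc protein Xirp2 rose, while Tcap, Tnni3 and Myom2 of the sarcomere fell. Xirp2, an actin-binding protein of the intercalated disc that responds to angiotensin II, had 58.8, 45.8, 48.1, 62.1 and 33.4 scaled TPM in aged Hap-I western-diet hearts, against 11.8, 17 and 11.9 in adult C57 hearts. The groups did not overlap, and the rise was 3.45-fold (log2 fold change 1.79 ± 0.21 SE, limma adjusted p = 0.000177). Ttn, the spring protein titin, averaged 82.9 ± 20.7 scaled TPM in aged Hap-I western-diet hearts and 27.2 ± 1.8 in adult C57 hearts (log2 fold change 1.53 ± 0.25 SE, limma adjusted p = 0.00115). Ankrd23, a titin-associated ankyrin repeat protein, averaged 220.3 ± 67 scaled TPM in aged Hap-I western-diet hearts and 103 ± 15.2 in adult C57 hearts (log2 fold change 1.04 ± 0.22 SE, limma adjusted p = 0.00455), and 78.0% of its words are shared, so the value is uncertain. Tcap, which caps titin at the Z-disc, had 1119, 1437, 1335, 1621 and 1495 scaled TPM in aged Hap-I western-diet hearts, against 2735, 2146 and 2681 in adult C57 hearts. The fall was 1.8-fold (log2 fold change -0.85 ± 0.15 SE, limma adjusted p = 0.00157). Tnni3, cardiac troponin I, fell to 3927 to 5203 scaled TPM in aged Hap-I western-diet hearts, against 7212 to 8027 in adult C57 hearts (log2 fold change -0.74 ± 0.15 SE, limma adjusted p = 0.00314). Myom2, an M-band protein, fell to an average of 202 ± 60.8 scaled TPM in aged Hap-I western-diet hearts, against 346 ± 35.2 in adult C57 hearts (log2 fold change -0.82 ± 0.21 SE, limma adjusted p = 0.0119). The groups did not overlap for any of these 6 genes. Of 25 sarcomere, disc and stretch-responsive genes tested, 3 rose and 4 fell, with a median of 0.03. These counts were 1 higher and 2 lower without adult C57 replicate 1 or replicate 3, 1 higher without aged Hap-I western-diet replicate 1 or 3, and 2 lower without replicate 2.

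Of 14 genes in the list of natriuretic peptides and fetal contractile genes, 4 rose and none fell, and the median was 0.28. The list was wider than its name: beside Acta1, the members that rose included Xirp2 and Ankrd23, both given above. Xirp2 was also counted in the disc list. At an unadjusted p under 0.05, 4 were higher and 3 lower. The number called lower was 1 in a fit of the 2 groups alone, with length corrected for, and in the libraries with Y-linked transcripts. It was also 1 without aged Hap-I western-diet replicate 1 or 4, and 3 with library weights. Acta1, skeletal alpha-actin, had 264, 169, 146, 323 and 174 scaled TPM in aged Hap-I western-diet hearts, against 90.9, 41.2 and 100.1 in adult C57 hearts (log2 fold change 1.5 ± 0.44 SE, limma adjusted p = 0.0249). Its call was lost without adult C57 replicate 2, the lowest library (limma adjusted p = 0.122), and the list then held 2 genes higher and 2 lower. The natriuretic peptides themselves were not called. Nppb, brain natriuretic peptide, had 156, 183, 84.5, 224 and 333 scaled TPM in aged Hap-I western-diet hearts, against 109, 47.9 and 215 in adult C57 hearts, and the groups overlapped (limma adjusted p = 0.319). Myh7, the slow myosin heavy chain, averaged 51.4 ± 35.5 scaled TPM in aged Hap-I western-diet hearts and 30.6 ± 6.72 in adult C57 hearts and the groups also overlapped (limma adjusted p = 0.431; 27.9% of its words are shared). Nppa, atrial natriuretic peptide, had 174, 82.4, 105, 167 and 173 scaled TPM in aged Hap-I western-diet hearts, against 3415, 179.6 and 2828 in adult C57 hearts (log2 fold change -3.16 ± 1.15 SE, limma adjusted p = 0.0615). The adult C57 hearts with high Nppa are replicates 1 and 3, which also had high atrial markers. With the atrial markers as a covariate the log2 fold change was 0.29, and 56.8% of the words of Nppa are shared.

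Cardiac transcription factors moved one way among the called genes. Of 28 tested, 10 rose and none fell, against a background of 12.3% higher, and the median log2 fold change was 0.30. With any 1 library left out 8 to 12 were higher. That number fell to 4 without scaling or under the atrial covariate, and to 5 in the libraries with Y-linked transcripts. In some settings 1 member was called lower: without adult C57 replicate 2, with library weights, and with length corrected for, alone or together with the Y-linked covariate. Myocd, the coactivator myocardin, had 10.9, 11.1, 12.2, 9.93 and 5.76 scaled TPM in aged Hap-I western-diet hearts, against 3.23, 3.55 and 3.84 in adult C57 hearts (log2 fold change 1.24 ± 0.22 SE, limma adjusted p = 0.0016). Gata4, a master factor of heart muscle, had 44.6, 39.5, 42.6, 38.2 and 43.1 scaled TPM in aged Hap-I western-diet hearts, against 30.4, 29.7 and 26.3 in adult C57 hearts (log2 fold change 0.51 ± 0.094 SE, limma adjusted p = 0.00204). Mef2d, a calcium-responsive factor that drives hypertrophic genes, averaged 28.8 ± 2.66 scaled TPM in aged Hap-I western-diet hearts and 19.99 ± 1.43 in adult C57 hearts (log2 fold change 0.50 ± 0.091 SE, limma adjusted p = 0.002). Esrrg, an estrogen-related receptor of mitochondrial genes, averaged 7.0 ± 1.0 scaled TPM in aged Hap-I western-diet hearts and 4.15 ± 0.624 in adult C57 hearts (log2 fold change 0.63 ± 0.13 SE, limma adjusted p = 0.00398). The groups did not overlap for any of these 4 genes.

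Signalling through adrenergic, muscarinic and endothelin receptors showed the same direction among its calls. Of 22 genes tested, 7 rose and none fell, with a median of 0.28. Without adult C57 replicate 3 there were 4 higher, and 2 in the libraries with Y-linked transcripts. The number lower was 1 without aged Hap-I western-diet replicate 2 or 5. Pde4d, which breaks down cyclic AMP near the ryanodine receptor, had 7.68, 9.8, 8.59, 6.35 and 6.03 scaled TPM in aged Hap-I western-diet hearts, against 2.43, 3.28 and 1.94 in adult C57 hearts (log2 fold change 1.29 ± 0.16 SE, limma adjusted p = 0.000277). Its relative Pde4b averaged 9.05 ± 1.6 scaled TPM in aged Hap-I western-diet hearts and 5.67 ± 0.167 in adult C57 hearts (log2 fold change 0.58 ± 0.14 SE, limma adjusted p = 0.00826). Grk5, the kinase that desensitises beta-adrenergic receptors, averaged 11.5 ± 3.2 scaled TPM in aged Hap-I western-diet hearts and 5.34 ± 0.424 in adult C57 hearts (log2 fold change 0.94 ± 0.21 SE, limma adjusted p = 0.00547). Edn3, endothelin 3, was at 1.56 to 4.52 scaled TPM in aged Hap-I western-diet hearts, against 0.575 to 0.869 in adult C57 hearts (log2 fold change 1.05 ± 0.22 SE, limma adjusted p = 0.00455). In all 4 genes the lowest aged Hap-I western-diet heart lay above the highest adult C57 heart.

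Scn4b and Kcnd3, which modulate sodium or carry transient outward currents, rose, while Kcnj8 and Gja4 fell. Scn4b, a beta subunit of the cardiac sodium channel, had 28.5, 18.8, 23.3, 25.6 and 20.7 scaled TPM in aged Hap-I western-diet hearts, against 5.87, 9.95 and 10.3 in adult C57 hearts (log2 fold change 1.35 ± 0.16 SE, limma adjusted p = 0.0002). Kcnd3, a pore subunit of the transient outward potassium current, averaged 2.16 ± 0.248 scaled TPM in aged Hap-I western-diet hearts and 1.06 ± 0.155 in adult C57 hearts (log2 fold change 0.62 ± 0.11 SE, limma adjusted p = 0.00142). Kcnj8, a subunit of the ATP-sensitive potassium channel of vessel walls, fell to an average of 3.81 ± 0.826 scaled TPM in aged Hap-I western-diet hearts, against 8.03 ± 1.31 in adult C57 hearts (log2 fold change -0.91 ± 0.14 SE, limma adjusted p = 0.000677). Groups did not overlap in any of these. Gja4, a connexin of arterial endothelium, had 3.36, 3.35, 4.0, 2.76 and 4.3 scaled TPM in aged Hap-I western-diet hearts, against 6.73, 5.19 and 7.1 in adult C57 hearts (log2 fold change -0.69 ± 0.13 SE, limma adjusted p = 0.00277). Over the lists, 3 of 17 potassium channel genes rose and 1 fell (median 0.05), and 3 of 11 sodium channel, pacemaker and connexin genes rose and 2 fell (median 0.15). The number of potassium channel genes lower was 2 without younger Hap-I western-diet replicate 2. In the other list 1 was lower without adult C57 replicate 1 or 3, or without aged Hap-I western-diet replicate 2, 3 or 4.

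Calcium cycling genes split evenly, with 5 of 24 higher, 5 lower and a median of 0.09. Camk2d, the main calmodulin-dependent kinase of heart muscle, averaged 33.9 ± 5.89 scaled TPM in aged Hap-I western-diet hearts and 21.5 ± 3.15 in adult C57 hearts (log2 fold change 0.63 ± 0.14 SE, limma adjusted p = 0.00748), though the groups overlapped. Casq1, the calsequestrin of skeletal muscle, had 1.93, 1.23, 1.56, 1.5 and 5.03 scaled TPM in aged Hap-I western-diet hearts, against 12.3, 7.98 and 10.7 in adult C57 hearts (log2 fold change -1.88 ± 0.38 SE, limma adjusted p = 0.0035). Replicate 5 was the highest of the aged Hap-I western-diet hearts and lay below the lowest adult C57 heart. Members higher numbered 2 without adult C57 replicate 1, 1 without replicate 3, and 3 without aged Hap-I western-diet replicate 1, 2 or 3. Members lower numbered 2 without adult C57 replicate 1 or 3 or aged Hap-I western-diet replicate 2, and 3 without adult C57 replicate 2 or aged Hap-I western-diet replicate 3 or 4.

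Every called nuclear gene of the respiratory chain was lower. Of 40 nuclear subunits of complexes II to V, 15 fell and none rose, all 40 had a negative log2 fold change, and the median was -0.41. Of 37 nuclear subunits of complex I, 10 fell and none rose, 36 were negative, and the median was again -0.41. Atp5b, the catalytic beta subunit of ATP synthase, had 2717, 2686, 2939, 3016 and 3033 scaled TPM in aged Hap-I western-diet hearts, against 5272, 5234 and 5481 in adult C57 hearts. The groups lay far apart relative to their spread, and the fall was 1.85-fold (log2 fold change -0.89 ± 0.12 SE, limma adjusted p = 0.000328). Ndufa9, an accessory subunit of complex I, averaged 97.4 ± 10.9 scaled TPM in aged Hap-I western-diet hearts and 168 ± 10.7 in adult C57 hearts (log2 fold change -0.79 ± 0.15 SE, limma adjusted p = 0.00248). In each of these genes all aged Hap-I western-diet hearts lay below all adult C57 hearts. Uqcrc1, a core protein of complex III, averaged 273 ± 15.4 scaled TPM in aged Hap-I western-diet hearts and 398 ± 17 in adult C57 hearts (log2 fold change -0.55 ± 0.10 SE, limma adjusted p = 0.00281). Cox5a, a subunit of cytochrome c oxidase, averaged 1113 ± 173 scaled TPM in aged Hap-I western-diet hearts and 1648 ± 166 in adult C57 hearts (log2 fold change -0.57 ± 0.14 SE, limma adjusted p = 0.00895). How many members passed depended on single libraries: without adult C57 replicates 1, 2 or 3 the count over complexes II to V was 6, 5 and 7, without aged Hap-I western-diet replicate 3 it was 9, and for complex I it was 5, 4 and 4 without adult C57 replicates 1, 2 and 3, 6, 5 and 17 without aged Hap-I western-diet replicates 1, 3 and 4. In the libraries with Y-linked transcripts 3 members of each list were called. With quantile normalization, which gives all libraries the same distribution of values, 4 members over complexes II to V were lower and 5 of complex I. Without scaling these counts were 20 and 18.

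Called genes of the tricarboxylic acid cycle, which feeds the chain, were also lower. Of 18 tricarboxylic acid cycle genes, 5 fell, none rose, and the median was -0.25 (3 fell without adult C57 replicate 2). With quantile normalization 1 fell and 1 rose, and without scaling 1 fell. Fh1, fumarate hydratase, had 186, 183, 207, 198 and 242 scaled TPM in aged Hap-I western-diet hearts, against 347, 407 and 315 in adult C57 hearts (log2 fold change -0.81 ± 0.14 SE, limma adjusted p = 0.00139). Mdh2, mitochondrial malate dehydrogenase, fell to 783 to 877 scaled TPM in aged Hap-I western-diet hearts, against 1176 to 1194 in adult C57 hearts (log2 fold change -0.50 ± 0.096 SE, limma adjusted p = 0.00285). Of 13 transcripts of the mitochondrial genome itself, 2 were higher and 1 lower, with a median of 0.42. The highest rise was of mt-Nd4l, a complex I subunit, at 17412 to 32824 scaled TPM in aged Hap-I western-diet hearts, against 5924 to 9676 in adult C57 hearts (log2 fold change 1.67 ± 0.28 SE, limma adjusted p = 0.00126). Its value is uncertain, since 98.9% of its words are shared. Without scaling 6 of the 13 were higher, in the libraries with Y-linked transcripts 7, and without younger Hap-I western-diet replicate 2, 4. The number higher was 1 without adult C57 replicate 1 or 3, in a fit of the 2 groups alone, and with the Y-linked or the atrial covariate, and none was lower without adult C57 replicate 1 or 2. Ventricular muscle markers also summed lower, at 38747 to 47069 scaled TPM in aged Hap-I western-diet hearts and 52242 to 56725 in adult C57 hearts (exact two-sided permutation p = 0.0357, the smallest possible), and their part in the respiratory genes was not tested.

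Among mitochondrial carriers of the Slc25 family more members were called higher than lower. Of 31, 7 rose and 1 fell, with a median of 0.14. Slc25a36, a pyrimidine nucleotide carrier, had 10.5, 11.7, 14.9, 9.16 and 13 scaled TPM in aged Hap-I western-diet hearts, against 6.74, 7.02 and 5.63 in adult C57 hearts (log2 fold change 0.77 ± 0.12 SE, limma adjusted p = 0.000641). Slc25a51, which brings NAD into mitochondria, averaged 19.5 ± 3.85 scaled TPM in aged Hap-I western-diet hearts and 11.2 ± 0.674 in adult C57 hearts (log2 fold change 0.72 ± 0.14 SE, limma adjusted p = 0.00294). Without adult C57 replicate 3 the list held 4 members higher, in the libraries with Y-linked transcripts 1, and without scaling none. The number lower was 2 without aged Hap-I western-diet replicate 2 or 4 or younger Hap-I western-diet replicate 2 or 4.

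Among genes of fuel choice, Ppara, Ppargc1b, Pfkfb2 and Pdpr rose, while Ldhb and Eno3 fell. Ppara, the nuclear receptor that turns on fatty acid burning, had 10.9, 12.8, 12.7, 8.08 and 3.82 scaled TPM in aged Hap-I western-diet hearts, against 2.03, 3.26 and 2.01 in adult C57 hearts (log2 fold change 1.56 ± 0.33 SE, limma adjusted p = 0.0048). Replicate 5 was the lowest of the aged Hap-I western-diet hearts but lay above all adult C57 hearts. Ppargc1b, a coactivator of mitochondrial genes, averaged 3.32 ± 0.663 scaled TPM in aged Hap-I western-diet hearts and 1.04 ± 0.10 in adult C57 hearts (log2 fold change 1.07 ± 0.15 SE, limma adjusted p = 0.000411). Pfkfb2, the cardiac enzyme that raises fructose 2,6-bisphosphate and with it glycolysis, had 15.5, 15, 18.9, 14.6 and 9.95 scaled TPM in aged Hap-I western-diet hearts, against 4.61, 4.92 and 3.85 in adult C57 hearts (log2 fold change 1.51 ± 0.15 SE, limma adjusted p = 0.000108). All aged Hap-I western-diet hearts were above all adult C57 hearts for both. Pdpr, a regulatory subunit of pyruvate dehydrogenase phosphatase, averaged 13.5 ± 3.57 scaled TPM in aged Hap-I western-diet hearts and 4.48 ± 1.74 in adult C57 hearts (log2 fold change 1.4 ± 0.26 SE, limma adjusted p = 0.0023). Ldhb, heart lactate dehydrogenase, had 141, 139, 138, 202 and 258 scaled TPM in aged Hap-I western-diet hearts, against 361, 431 and 429.8 in adult C57 hearts (log2 fold change -1.25 ± 0.20 SE, limma adjusted p = 0.000872), and 33.0% of its words are shared. Replicates 4 and 5 were the highest aged Hap-I western-diet hearts and still lay below the adult C57 hearts. Eno3, muscle enolase, averaged 680.4 ± 69.9 scaled TPM in aged Hap-I western-diet hearts and 992 ± 53.5 in adult C57 hearts (log2 fold change -0.55 ± 0.11 SE, limma adjusted p = 0.00285). Pdk4, the pyruvate dehydrogenase kinase induced by fat and fasting, had 75.3, 76.7, 154, 154 and 94.1 scaled TPM in aged Hap-I western-diet hearts, against 50.9, 115 and 51.2 in adult C57 hearts and was not called (log2 fold change 0.65 ± 0.28 SE, limma adjusted p = 0.117).

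By list, 2 of 33 fatty acid oxidation, ketone and PPAR target genes rose and 5 fell (median -0.09), and 2 of 34 glucose and insulin genes rose and 8 fell (median -0.12). Of 27 fatty acid uptake and lipid droplet genes, 1 rose and 5 fell (median -0.08). The fatty acid oxidation genes lower numbered 2 without adult C57 replicate 1 or 2, 3 without adult C57 replicate 3 or aged Hap-I western-diet replicate 1 or 5, and 8 without younger Hap-I western-diet replicate 2. The uptake genes lower numbered 2 without adult C57 replicate 2 and 1 without replicate 3, and those higher 0 to 2 with 1 library left out. Without adult C57 replicate 3 or aged Hap-I western-diet replicate 2 there were 5 glucose genes lower. Cholesterol and fatty acid synthesis had 2 of 26 genes higher and 6 lower (median -0.07; 3 lower without adult C57 replicate 1, and 1 higher without replicate 1 or 3). Srebf1, the factor that turns on lipid synthesis, averaged 8.81 ± 1.55 scaled TPM in aged Hap-I western-diet hearts and 4.6 ± 0.599 in adult C57 hearts (log2 fold change 0.80 ± 0.13 SE, limma adjusted p = 0.000944). Fdft1, squalene synthase, had 3.5, 2.27, 4.01, 2.65 and 3.1 scaled TPM in aged Hap-I western-diet hearts, against 9.54, 11.7 and 8.92 in adult C57 hearts (log2 fold change -1.44 ± 0.27 SE, limma adjusted p = 0.00273). That value is uncertain, as 31.9% of its words are shared.

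**Figure D3:**
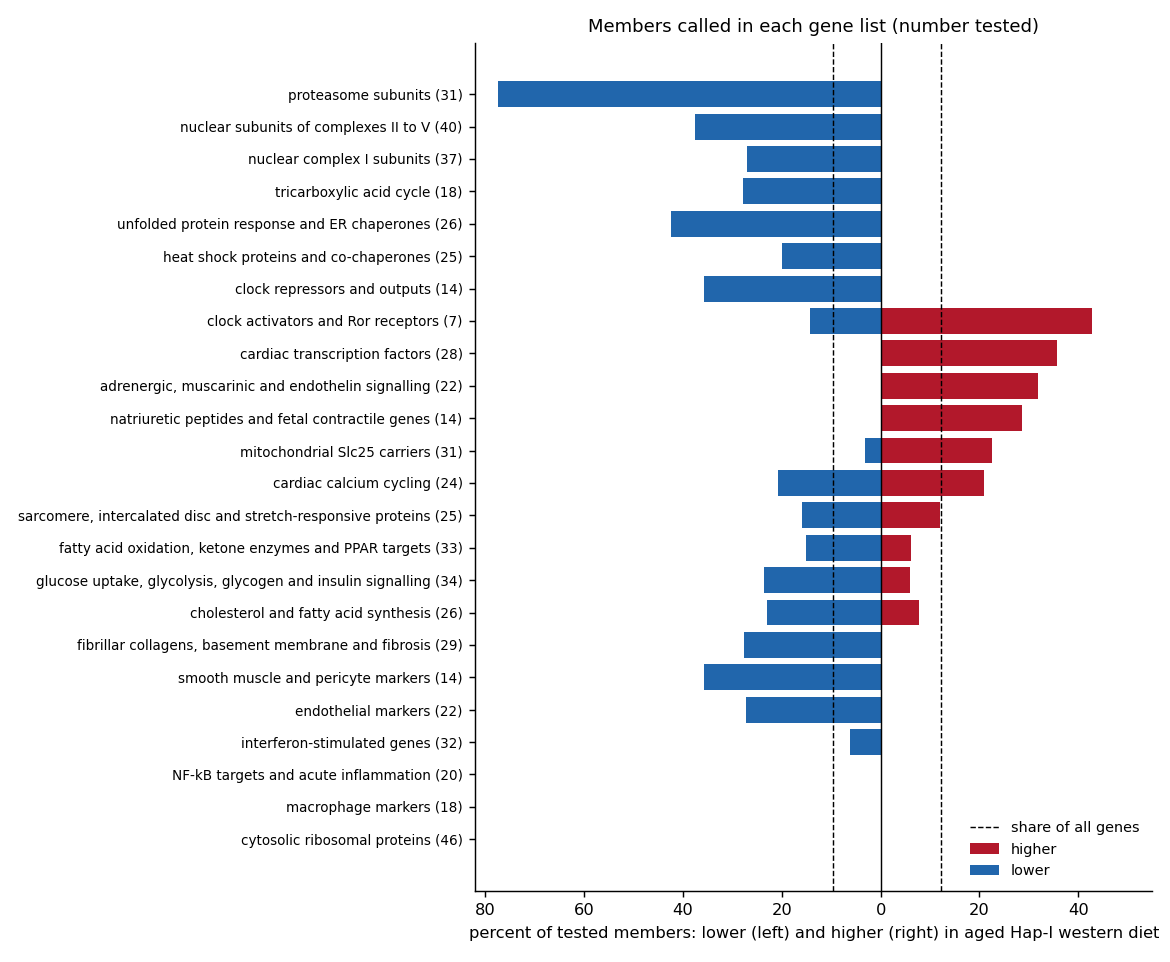
Bars give the percent of tested members of each gene list that were called lower (left, blue) or higher (right, red) in aged Hap-I western diet relative to adult C57, with the number tested in brackets; dashed lines mark the shares of all genes, 9.57% lower and 12.3% higher. Proteasome subunits (24 of 31 lower) reach farthest to the left.

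Of all lists, proteasome subunits had the highest share of called members. Of 31 tested, 24 fell and none rose, 30 had a negative log2 fold change, and the median was -0.36. Psmd13, a lid subunit of the 19S regulator, had 39, 34.6, 36.8, 34.3 and 39.5 scaled TPM in aged Hap-I western-diet hearts, against 58.6, 59.4 and 60.5 in adult C57 hearts (log2 fold change -0.68 ± 0.087 SE, limma adjusted p = 0.000279). Psmc2, an ATPase of the 19S base, had 40.6, 36.9, 37.4, 31.3 and 38.8 scaled TPM in aged Hap-I western-diet hearts, against 56, 53.1 and 53.9 in adult C57 hearts (log2 fold change -0.55 ± 0.099 SE, limma adjusted p = 0.00202). Psmc6, another of these ATPases, averaged 28.3 ± 1.37 scaled TPM in aged Hap-I western-diet hearts and 38.2 ± 2.5 in adult C57 hearts (log2 fold change -0.42 ± 0.075 SE, limma adjusted p = 0.0019). Psme1, a subunit of the 11S activator that serves antigen processing, averaged 87.4 ± 6.22 scaled TPM in aged Hap-I western-diet hearts and 127 ± 3.57 in adult C57 hearts (log2 fold change -0.54 ± 0.095 SE, limma adjusted p = 0.00177); it was counted with the immunoproteasome list, where 2 of 17 fell (1 without adult C57 replicate 3, 7 without aged Hap-I western-diet replicate 5). Groups did not overlap for any of these 4. The count was 12 without adult C57 replicate 3 and 12 in a fit of the 2 groups alone. It was 9 with quantile normalization, 5 without scaling and 4 in the libraries with Y-linked transcripts.

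Chaperones of the endoplasmic reticulum, which fold secreted and membrane proteins and rise in the unfolded protein response, were lower where called. Of 26, 11 fell and none rose, 24 were negative, and the median was -0.46. Calr, the calcium-binding chaperone calreticulin, had 144, 95.7, 117, 74.7 and 128 scaled TPM in aged Hap-I western-diet hearts, against 215, 201 and 263 in adult C57 hearts (log2 fold change -1.04 ± 0.20 SE, limma adjusted p = 0.00256). Dnajb11, a cochaperone of BiP, had 19.3, 15.9, 16.7, 15.3 and 17.6 scaled TPM in aged Hap-I western-diet hearts, against 29, 25.9 and 29.6 in adult C57 hearts (log2 fold change -0.70 ± 0.098 SE, limma adjusted p = 0.000427). Creld2, a folding factor induced by stress of the reticulum, had 8.78, 9.13, 8.04, 6.07 and 8.52 scaled TPM in aged Hap-I western-diet hearts, against 14.2, 11.4 and 17.5 in adult C57 hearts (log2 fold change -0.75 ± 0.14 SE, limma adjusted p = 0.00214). The groups were apart for all 3. Herpud1, which takes part in degradation from the reticulum, averaged 65 ± 14.6 scaled TPM in aged Hap-I western-diet hearts and 126 ± 18.9 in adult C57 hearts (log2 fold change -0.97 ± 0.20 SE, limma adjusted p = 0.00422). The count was 10 in the libraries with Y-linked transcripts, 6 without adult C57 replicate 3 and 2 without scaling. Heat shock proteins of the cytosol had 5 of 25 lower and none higher (median -0.29), but none lower without adult C57 replicate 3, 2 without replicate 1, and 8 without younger Hap-I western-diet replicate 4. Sqstm1, the autophagy receptor p62, averaged 138 ± 31.9 scaled TPM in aged Hap-I western-diet hearts and 234 ± 27.2 in adult C57 hearts (log2 fold change -0.78 ± 0.17 SE, limma adjusted p = 0.00609), and Ctsl, the lysosomal protease cathepsin L, averaged 43.2 ± 7.82 scaled TPM in aged Hap-I western-diet hearts and 71.2 ± 10.5 in adult C57 hearts (log2 fold change -0.71 ± 0.13 SE, limma adjusted p = 0.00198), and 28.2% of its words are shared. Ulk2, a kinase that starts autophagy, averaged 18.1 ± 3.68 scaled TPM in aged Hap-I western-diet hearts and 10.2 ± 1.6 in adult C57 hearts (log2 fold change 0.76 ± 0.16 SE, limma adjusted p = 0.00503), and its groups overlapped. Of 33 autophagy, mitophagy and atrophy genes, 4 rose and 4 fell (24.2% called, against 21.9% of all genes), with a median of -0.10. The number higher was 2 without adult C57 replicate 1 or 3. The number lower was 2 without adult C57 replicate 1 or 2 or aged Hap-I western-diet replicate 3. Cytosolic ribosomal proteins gave no call among 46 genes in limma, with a median of -0.15. At an unadjusted p under 0.05 none was higher and 2 were lower.

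Genes of the circadian clock changed in both arms. In the clock, BMAL1 (Arntl) pairs with CLOCK or NPAS2 on E-box sequences and turns on its own repressors and output factors. Motifs were looked for singly only in Ciart, Hlf, Creld2, Arntl, Clock and Dnajb11. These were taken by smallest p from the called clock, interferon, heat shock, ER chaperone and fatty acid oxidation genes. Ppargc1b of that last list was left out although its p was smaller than any of theirs. The other called genes were not looked at singly. The 3 promoters whose 250 bases before the RefSeq start hold a motif are printed, and capitals mark the motif. The Ciart promoter lies at chr3:95882229-95882478 on the minus strand and holds the E-box CACGTG 3 times, the Hlf promoter at chr11:90390918-90391167 on the minus strand and holds the cAMP element TGACGTCA, and the Creld2 promoter, of the chaperone group above, at chr15:88819396-88819645 on the plus strand and holds the ER stress element, CCAAT and CCACG with 9 bases between, on the opposite strand. Sequences are from RefSeq, GRCm38.p6, written 5′ to 3′ along the gene.
Ciart: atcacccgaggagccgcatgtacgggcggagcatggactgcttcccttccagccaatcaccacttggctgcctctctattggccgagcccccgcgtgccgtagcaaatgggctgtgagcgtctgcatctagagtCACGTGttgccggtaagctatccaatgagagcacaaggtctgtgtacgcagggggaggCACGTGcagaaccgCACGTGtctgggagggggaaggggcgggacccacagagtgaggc
Hlf: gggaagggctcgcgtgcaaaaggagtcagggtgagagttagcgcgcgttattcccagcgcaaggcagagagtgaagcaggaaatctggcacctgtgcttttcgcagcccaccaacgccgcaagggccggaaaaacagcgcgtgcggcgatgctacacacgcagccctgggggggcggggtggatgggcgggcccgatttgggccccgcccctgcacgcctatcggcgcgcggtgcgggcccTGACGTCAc
Creld2: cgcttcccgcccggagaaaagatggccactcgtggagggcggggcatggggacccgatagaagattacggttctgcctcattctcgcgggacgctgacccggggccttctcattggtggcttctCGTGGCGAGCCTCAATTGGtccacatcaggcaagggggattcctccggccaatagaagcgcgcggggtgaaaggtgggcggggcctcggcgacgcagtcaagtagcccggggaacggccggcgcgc
The E-boxes of Ciart span bases -116 to -111, -58 to -53 and -44 to -39 before the start. Searched on both strands in 27025 promoters of the same length, the E-box occurred in 6.05%, the cAMP element in 1.62% and the ER stress element in 0.122%. The ROR element AGGTCA occurred in 13.8% and the D-box TTATGTAA in 0.862%. None of these motifs, nor the interferon, heat shock, glucocorticoid and PPAR elements also searched for, was found in the windows of Arntl, Clock or Dnajb11. A match describes letters and is not a measured binding site.

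The list of clock activators and Ror receptors also held 2 repressors, Cry1 and Nfil3. Of its 7 tested members, 3 rose (Arntl, Clock and Npas2) and 1 fell, with a median of 0.26, and the one that fell was the repressor Cry1, which was not called without adult C57 replicate 1 or 3. Npas2, which can pair with BMAL1 in place of CLOCK, averaged 0.758 ± 0.27 scaled TPM in aged Hap-I western-diet hearts and 0.205 ± 0.141 in adult C57 hearts (log2 fold change 0.54 ± 0.13 SE, limma adjusted p = 0.00851), and its call was lost without adult C57 replicate 3 (limma adjusted p = 0.0515). Arntl had 1.97, 2.44, 1.46, 1.8 and 3.14 scaled TPM in aged Hap-I western-diet hearts, against 0.402, 0.671 and 0.18 in adult C57 hearts. Every aged Hap-I western-diet heart was above the adult C57 hearts, by 2.21-fold on the scale of scaled TPM + 1 (log2 fold change 1.15 ± 0.19 SE, limma adjusted p = 0.000944). Clock had 4.08, 2.74, 2.8, 3.36 and 2.53 scaled TPM in aged Hap-I western-diet hearts, against 0.599, 1.1 and 0.263 in adult C57 hearts (log2 fold change 1.33 ± 0.21 SE, limma adjusted p = 0.000758). Of the other 14 clock genes, repressors and outputs, 5 fell and none rose, with a median of -0.32. Hlf, a PAR bZIP output factor, had 3.56, 3.53, 3.67, 3.13 and 2.48 scaled TPM in aged Hap-I western-diet hearts, against 8.72, 8.72 and 5.81 in adult C57 hearts (log2 fold change -1.02 ± 0.14 SE, limma adjusted p = 0.000427). Adult C57 replicates 1 and 2 were highest for Hlf, and no aged Hap-I western-diet heart reached replicate 3. Ciart, a repressor that binds BMAL1, had 4.17, 4.57, 4.47, 4.19 and 3.29 scaled TPM in aged Hap-I western-diet hearts, against 9.02, 10.7 and 11 in adult C57 hearts (log2 fold change -1.13 ± 0.20 SE, limma adjusted p = 0.00165), and 20.8% of its words are shared. Tef, another PAR bZIP factor, averaged 34.2 ± 5.69 scaled TPM in aged Hap-I western-diet hearts and 52.5 ± 4.01 in adult C57 hearts (log2 fold change -0.62 ± 0.14 SE, limma adjusted p = 0.00741), and Cry2, a core repressor, averaged 6.58 ± 0.881 scaled TPM in aged Hap-I western-diet hearts and 9.68 ± 0.596 in adult C57 hearts (log2 fold change -0.50 ± 0.12 SE, limma adjusted p = 0.0103). Dbp, a further PAR bZIP factor, had 5.07, 10.6, 8.74, 7.44 and 8.43 scaled TPM in aged Hap-I western-diet hearts, against 17.6, 12.4 and 14.3 in adult C57 hearts (log2 fold change -0.82 ± 0.23 SE, limma adjusted p = 0.0203). Its call was lost without adult C57 replicate 1 (limma adjusted p = 0.0969) or replicate 3 (0.0606). In the libraries with Y-linked transcripts Arntl and Clock were called higher and Hlf, Ciart, Tef and Cry2 lower, and Dbp was not called (limma adjusted p = 0.0705). The hour of collection is not in the labels, so clock phase and group cannot be told apart.

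**Figure D4:**
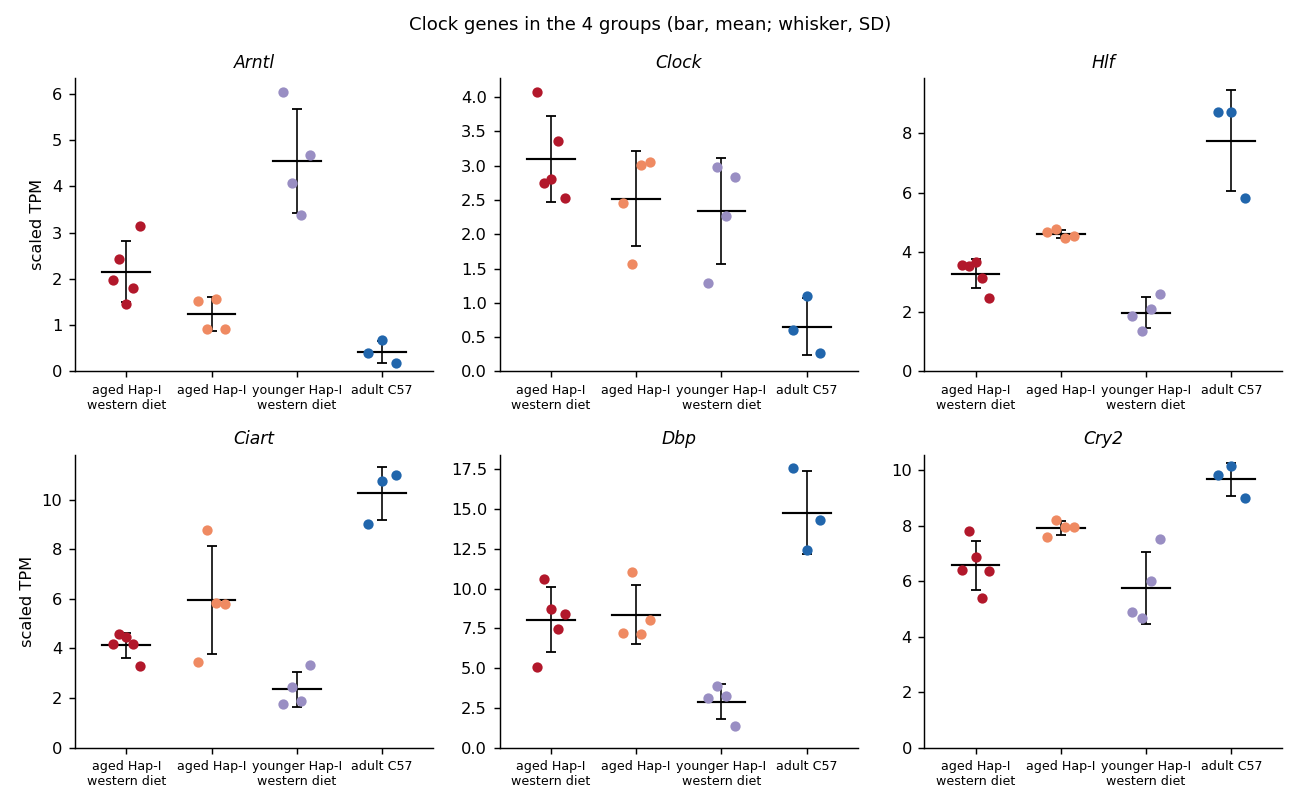
Scaled TPM of 6 clock genes in each library of the 4 groups, with bars at the mean and whiskers of SD; aged Hap-I western diet (n = 5) is leftmost and adult C57 (n = 3) rightmost. The adult C57 group has the lowest mean of Arntl and Clock and the highest of Hlf, Ciart, Dbp and Cry2, and the younger Hap-I western-diet hearts have the highest Arntl, 4.55 on average.

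In the contrast of the Hap-I groups of different age on the same diet, which called 2.39% of genes, 4 of the 14 repressors and outputs were called higher and none lower, and 1 of the 7 members of the activator list, Arntl, was called lower and none higher. Arntl averaged 2.16 scaled TPM in aged Hap-I western-diet hearts, against 4.55 in younger Hap-I western-diet hearts (log2 fold change -0.81, limma adjusted p = 0.025). Dbp ran opposite, at 8.06 in aged Hap-I western-diet hearts and 2.91 in younger Hap-I western-diet hearts (1.23, limma adjusted p = 0.0151).

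Matrix genes were lower where they were called. Of 29 collagen, basement membrane and fibrosis genes, 8 fell and none rose, 26 were negative, and the median was -0.62. Fmod, fibromodulin, which organises collagen fibrils, had 0.263, 0.215, 0.288, 0.473 and 0.75 scaled TPM in aged Hap-I western-diet hearts, against 3.46, 2.21 and 2.32 in adult C57 hearts (log2 fold change -1.39 ± 0.24 SE, limma adjusted p = 0.00158). Comp, cartilage oligomeric matrix protein, had 0.572, 0.291, 0.965, 0.183 and 0.349 scaled TPM in aged Hap-I western-diet hearts, against 4.46, 1.31 and 5.29 in adult C57 hearts (log2 fold change -1.57 ± 0.34 SE, limma adjusted p = 0.00533), and adult C57 replicate 2 was lower than the other adult C57 hearts. Sparc, a collagen-binding matrix protein, averaged 78.7 ± 26.6 scaled TPM in aged Hap-I western-diet hearts and 157 ± 34.7 in adult C57 hearts (log2 fold change -1.03 ± 0.22 SE, limma adjusted p = 0.00551), and Dcn, decorin, averaged 187 ± 29.2 scaled TPM in aged Hap-I western-diet hearts and 286 ± 7.66 in adult C57 hearts (log2 fold change -0.62 ± 0.13 SE, limma adjusted p = 0.00533). Col1a1 and Col3a1, the main fibrillar collagens, were not called. Col1a1 had 12.3, 2.64, 4.98, 3.26 and 12.7 scaled TPM in aged Hap-I western-diet hearts, against 14.3, 7.94 and 15.4 in adult C57 hearts (limma adjusted p = 0.123), and Col3a1 averaged 38.7 ± 25.6 scaled TPM in aged Hap-I western-diet hearts and 75.5 ± 11.7 in adult C57 hearts (limma adjusted p = 0.0572). In both, replicates 1 and 5 were the highest of the aged Hap-I western-diet hearts, and the groups overlapped. Timp3, an inhibitor of metalloproteinases, averaged 31.5 ± 8.35 scaled TPM in aged Hap-I western-diet hearts and 62.4 ± 2.51 in adult C57 hearts (log2 fold change -1.0 ± 0.24 SE, limma adjusted p = 0.00933), and 21.9% of its words are shared. The number of matrix genes lower was 5 without adult C57 replicate 1, 4 without replicate 3, 3 in the libraries with Y-linked transcripts and 1 with the atrial covariate. Fibroblast markers summed to 365 to 752 scaled TPM in aged Hap-I western-diet hearts and 881 to 1154 in adult C57 hearts (exact two-sided permutation p = 0.0357), with 4 of 15 lower (1 and 2 without adult C57 replicates 1 and 3, 2 without aged Hap-I western-diet replicate 2 or 4), and their part in the matrix genes was not tested. TGF-beta and BMP genes had 4 of 24 higher and 1 lower (median 0.02), and the number lower was 0 without adult C57 replicate 1 or 2 or aged Hap-I western-diet replicate 2, 3 or 4, and 2 without aged Hap-I western-diet replicate 5. Smad3, the TGF-beta signal carrier, averaged 3.6 ± 0.287 scaled TPM in aged Hap-I western-diet hearts and 2.17 ± 0.246 in adult C57 hearts (log2 fold change 0.54 ± 0.084 SE, limma adjusted p = 0.000771), and Pmepa1, a feedback target of that pathway, averaged 8.67 ± 1.18 scaled TPM in aged Hap-I western-diet hearts and 5.43 ± 1.1 in adult C57 hearts (log2 fold change 0.59 ± 0.13 SE, limma adjusted p = 0.00556).

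Several smooth muscle genes of the vessel wall fell. Of 14 smooth muscle and pericyte markers, 5 fell and none rose, with a median of -0.30, and 4 to 7 were lower without any 1 library. Myh11, smooth muscle myosin, had 0.969, 0.51, 0.796, 0.392 and 1.47 scaled TPM in aged Hap-I western-diet hearts, against 4.33, 3.61 and 4.23 in adult C57 hearts (log2 fold change -1.5 ± 0.19 SE, limma adjusted p = 0.000271). The highest aged Hap-I western-diet heart lay below the lowest adult C57 heart. Myl9, the regulatory light chain that smooth muscle kinases act on, had 7.86, 14.1, 11.2, 11 and 12.1 scaled TPM in aged Hap-I western-diet hearts, against 32.8, 19.7 and 34 in adult C57 hearts (log2 fold change -1.27 ± 0.20 SE, limma adjusted p = 0.000719). Lmod1, leiomodin, averaged 0.391 ± 0.0928 scaled TPM in aged Hap-I western-diet hearts and 1.31 ± 0.176 in adult C57 hearts (log2 fold change -0.73 ± 0.097 SE, limma adjusted p = 0.000335). It passed the filter of 1 TPM in 3 libraries through the adult C57 hearts, where it was high, so its fall is not separate support. Without adult C57 replicate 1, 2 or 3 it was not kept, and the list then had 4 lower. Summed over the list, smooth muscle and pericyte markers overlapped, at 618 to 791 scaled TPM in aged Hap-I western-diet hearts and 749.6 to 841 in adult C57 hearts (exact two-sided permutation p = 0.179). Endothelial markers had 6 of 22 lower and none higher (median -0.41), but none was called without adult C57 replicate 3, 3 and 2 were without replicates 1 and 2, and 3 and 1 without aged Hap-I western-diet replicates 2 and 3. Their sums were 955 to 1372 scaled TPM in aged Hap-I western-diet hearts and 1451 to 1867 in adult C57 hearts (exact two-sided permutation p = 0.0357).

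Of 12 genes of the mouse's own renin-angiotensin system tested, 1 rose and 1 fell, or 16.7%, against 21.9% of all genes. The member that rose was not called without adult C57 replicate 3. The number lower was 0 without adult C57 replicate 1 or 3, where Agt, the member that fell, did not pass the filter and was not tested. It was 2 without aged Hap-I western-diet replicate 5. Agtr1a, the main mouse type 1 receptor gene, had 12.2, 12.4, 10.1, 14.8 and 14.6 scaled TPM in aged Hap-I western-diet hearts, against 10.5, 13.6 and 9.08 in adult C57 hearts, and the groups overlapped (log2 fold change 0.21 ± 0.14 SE, limma adjusted p = 0.303). Ace, which makes angiotensin II, averaged 7.01 ± 3.71 scaled TPM in aged Hap-I western-diet hearts and 12.6 ± 2.16 in adult C57 hearts and was not called (limma adjusted p = 0.0786). Agt, the precursor, had 0.452, 0.326, 0.228, 0.596 and 0.838 scaled TPM in aged Hap-I western-diet hearts, against 1.05, 0.712 and 1.35 in adult C57 hearts and was called lower (log2 fold change -0.45 ± 0.15 SE, limma adjusted p = 0.0371), with overlapping groups at low levels. Without aged Hap-I western-diet replicate 1, 2 or 3 the limma adjusted p of Agt was 0.0591, 0.0711 and 0.0827. Transcripts of the human transgene were not analysed here.

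Among the named genes the deepest falls were of atrial muscle genes. Myl7, the atrial regulatory light chain, had 0.388, 0.358, 0.673, 17.5 and 1.04 scaled TPM in aged Hap-I western-diet hearts, against 1831, 26.7 and 879.7 in adult C57 hearts (log2 fold change -7.09 ± 2.18 SE, limma adjusted p = 0.0303). Myl4, the atrial essential light chain, had 1.82, 2.8, 2.77, 11 and 2.48 scaled TPM in aged Hap-I western-diet hearts, against 1180, 18.9 and 606 in adult C57 hearts (log2 fold change -5.78 ± 1.82 SE, limma adjusted p = 0.0342), and Sln, the atrial calcium pump inhibitor sarcolipin, averaged 0.447 ± 0.949 scaled TPM in aged Hap-I western-diet hearts and 116 ± 109.5 in adult C57 hearts (log2 fold change -5.17 ± 1.68 SE, limma adjusted p = 0.0386). Adult C57 replicates 1 and 3 carried these genes at high level and replicate 2 did not. Without replicate 1 the limma adjusted p was 0.133 for Myl7, 0.154 for Myl4 and 0.174 for Sln, and without replicate 3 it was 0.112, 0.127 and 0.146. Each call was also lost, at 0.0529 to 0.0678, without aged Hap-I western-diet replicate 1, 2 or 3, and that of Sln without replicate 5 (0.0551). Of 12 atrial markers tested, 7 were lower (median -2.14), but 1 without either of those adult C57 hearts and 3, 2 and 2 without aged Hap-I western-diet replicates 1, 2 and 3. The sums were 112 to 226 scaled TPM in aged Hap-I western-diet hearts, against 6830, 260.0 and 4642 in adult C57 replicates 1, 2 and 3. The labels do not say how much atrium was taken with each heart, and the share of atrium and the group cannot be told apart. With the atrial markers as a covariate, 667 genes were called over the transcriptome, 408 higher and 259 lower.

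**Figure D5:**
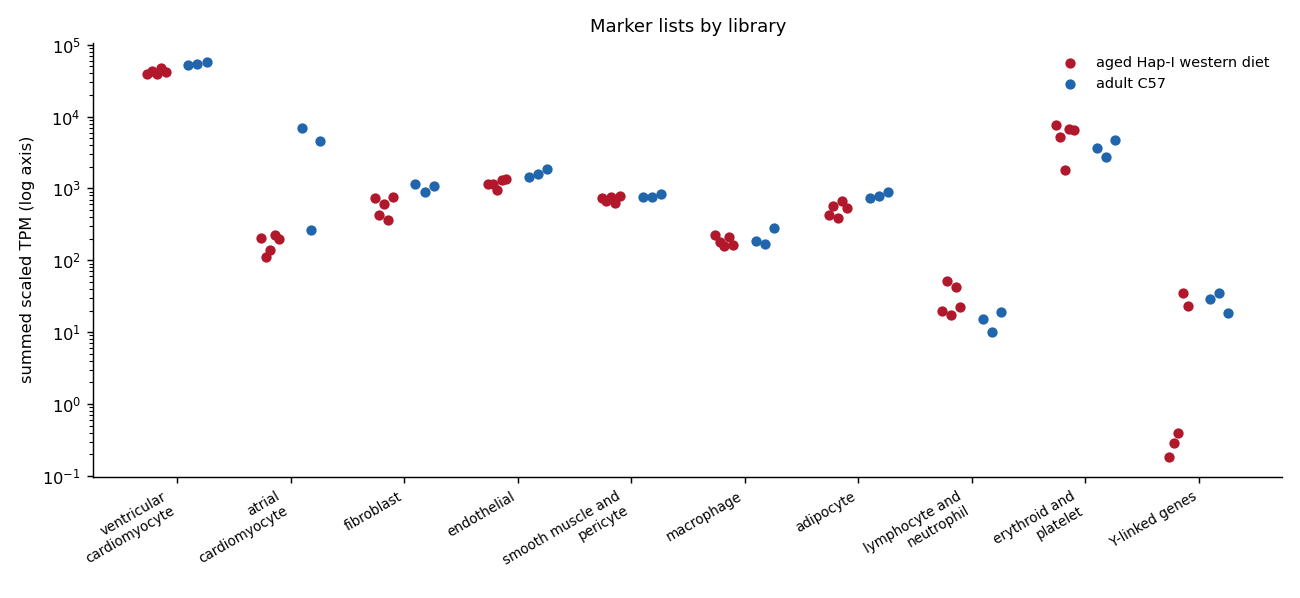
Summed scaled TPM of 10 marker lists (log axis) in each library, aged Hap-I western diet (red) left of adult C57 (blue). Atrial markers reach 4642 and 6830 in adult C57 replicates 3 and 1, and Y-linked genes are near 0 in 3 aged Hap-I western-diet hearts.

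Interferon-stimulated genes had none of 32 higher and 2 lower, 26 were positive, and the median was 0.40. None was lower without adult C57 replicate 1 or 3 or aged Hap-I western-diet replicate 2, and 1 without aged Hap-I western-diet replicate 1 or 3. Irf7, the amplifying factor of the interferon response, had 12.7, 6.5, 8.99, 49.4 and 72.4 scaled TPM in aged Hap-I western-diet hearts, against 4.68, 5.2 and 13.7 in adult C57 hearts (log2 fold change 1.37 ± 0.61 SE, limma adjusted p = 0.119). Replicates 4 and 5, the aged Hap-I western-diet hearts with Y-linked transcripts, were the high ones. Among libraries with Y-linked transcripts 22 interferon genes were called higher and none lower, and with a covariate for those transcripts 11 were; the presence of Y-linked transcripts and those 2 hearts cannot be told apart. Without aged Hap-I western-diet replicate 2, 5 were higher. Targets of NF-kB had no call among 20 in limma and macrophage markers none among 18. Macrophage marker sums were 157 to 224 scaled TPM in aged Hap-I western-diet hearts and 168 to 282 in adult C57 hearts. At an unadjusted p under 0.05, 2 NF-kB targets were higher and 1 lower, 1 macrophage marker was higher and 3 lower, and 4 interferon genes were higher. Without aged Hap-I western-diet replicate 1, 3 macrophage markers were called lower. Ighg2c, an immunoglobulin heavy chain constant gene, averaged 12.1 ± 3.62 scaled TPM in aged Hap-I western-diet hearts and 2.73 ± 1.23 in adult C57 hearts (log2 fold change 1.83 ± 0.25 SE, limma adjusted p = 0.000413). Lymphocyte and neutrophil markers had no call among 6 in limma, with 5 positive and a median of 0.73. Their sums overlapped, at 17.6 to 51.5 scaled TPM in aged Hap-I western-diet hearts and 10.1 to 19.4 in adult C57 hearts (exact two-sided permutation p = 0.0714).

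Genes of the p53 pathway and growth arrest changed in both directions, with 5 of 24 higher and 4 lower and a median of 0.17. Cdkn1a, the cell cycle inhibitor p21, had 14.1, 8.85, 13.3, 23.7 and 12.3 scaled TPM in aged Hap-I western-diet hearts, against 4.93, 4.5 and 7.64 in adult C57 hearts (log2 fold change 1.17 ± 0.27 SE, limma adjusted p = 0.00791). Mdm4, an inhibitor of p53, had 3.57, 4.98, 7.69, 3.76 and 8.8 scaled TPM in aged Hap-I western-diet hearts, against 2.33, 2.24 and 2.06 in adult C57 hearts (log2 fold change 1.01 ± 0.21 SE, limma adjusted p = 0.00478). Gdf15, a stress hormone, was low throughout, at 0.464 to 1.21 scaled TPM in aged Hap-I western-diet hearts, against 0.0922 to 0.363 in adult C57 hearts (log2 fold change 0.56 ± 0.13 SE, limma adjusted p = 0.00771). Cdkn1c, the inhibitor p57, averaged 3.19 ± 0.855 scaled TPM in aged Hap-I western-diet hearts and 6.06 ± 0.679 in adult C57 hearts (log2 fold change -0.77 ± 0.17 SE, limma adjusted p = 0.00618), and 27.2% of its words are shared. Members lower numbered 1 without adult C57 replicate 1 and 2 without replicate 2 or without aged Hap-I western-diet replicate 2, and members higher 3 without aged Hap-I western-diet replicate 3. In antioxidant defence 1 of 35 genes rose and 5 fell (median -0.19; 2, 3 and 1 lower without adult C57 replicates 1, 2 and 3, and 3 without aged Hap-I western-diet replicate 3). Prdx2, a peroxiredoxin, fell to an average of 298 ± 29.1 scaled TPM in aged Hap-I western-diet hearts, against 448 ± 21.5 in adult C57 hearts (log2 fold change -0.59 ± 0.11 SE, limma adjusted p = 0.00218), and Gsr, glutathione reductase, averaged 7.16 ± 0.824 scaled TPM in aged Hap-I western-diet hearts and 4.91 ± 0.385 in adult C57 hearts (log2 fold change 0.46 ± 0.11 SE, limma adjusted p = 0.00888).

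Some of the steepest values belong to sequences that kallisto cannot place uniquely. Gm10800, a predicted gene on chromosome 2, had 7.83, 27.7, 46.8, 42.3 and 349.6 scaled TPM in aged Hap-I western-diet hearts, against 0.362, 0 and 0 in adult C57 hearts (log2 fold change 5.34 ± 0.81 SE, limma adjusted p = 0.000634), and aged Hap-I western-diet replicate 5 stood far above the rest. It shares 42.0% of its words. With adult C57 values at or near 0, that fold change depends on the pseudocount of 1. Gm28437, on chromosome 1, averaged 46841 ± 14962 scaled TPM in aged Hap-I western-diet hearts and 12147 ± 5675 in adult C57 hearts (log2 fold change 1.98 ± 0.29 SE, limma adjusted p = 0.000549), and 100% of its words are shared.

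Leading genes were also set beside the other Hap-I hearts, in contrasts that share the same 5 aged Hap-I western-diet libraries. Against aged Hap-I hearts, 0.166% of genes were called. Myh11 was among them, at 0.828 scaled TPM on average in aged Hap-I western-diet hearts, against 2.68 in aged Hap-I hearts (log2 fold change -1.02, limma adjusted p = 0.031). Myl9 was another, at 11.3 in aged Hap-I western-diet hearts, against 23.1 in aged Hap-I hearts (-0.98, limma adjusted p = 0.0429), and Pdk4 was also called, at 111 in aged Hap-I western-diet hearts, against 33.7 in aged Hap-I hearts (1.62, limma adjusted p = 0.0203). Xirp2, Prkcq, Hipk2 and Atp5b were not called in that contrast, with limma adjusted p of 0.516, 0.342, 0.157 and 0.172. Against younger Hap-I western-diet hearts, 2.39% of genes were called. Xirp2 averaged 49.6 scaled TPM in aged Hap-I western-diet hearts, against 24 in younger Hap-I western-diet hearts (1.03, limma adjusted p = 0.019). Prkcq averaged 5.02 in aged Hap-I western-diet hearts, against 2.97 in younger Hap-I western-diet hearts (0.60, limma adjusted p = 0.011), and Pfkfb2 14.8 in aged Hap-I western-diet hearts, against 8.42 in younger Hap-I western-diet hearts (0.73, limma adjusted p = 0.0195). Psmd13 averaged 36.8 in aged Hap-I western-diet hearts, against 48.2 in younger Hap-I western-diet hearts (-0.38, limma adjusted p = 0.026). Atp5b was not called there (-0.38, limma adjusted p = 0.071). The adult C57 averages were 4.06 for Myh11, 28.9 for Myl9, 13.5 for Xirp2, 1.43 for Prkcq, 4.46 for Pfkfb2, 59.5 for Psmd13 and 72.2 for Pdk4.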

How the data were processed

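RNA with poly(A) tails from mouse hearts was sequenced in 16 libraries, 5 of aged Hap-I western-diet hearts, 4 of aged Hap-I hearts, 4 of younger Hap-I western-diet hearts and 3 of adult C57 hearts, with a stranded kit per the labels' protocols. The authors deposited TPM (transcript abundance scaled by length and library) per gene, a unit that the deposited table carries in its name; the submitters' processing notes name kallisto, DESeq2 and GRCm38, with versions not given in the sources used here. TPM keep no depth, so the number of reads behind a value is unknown. The diet of the younger Hap-I group is given by the sample labels and not by the design text, and the labels were followed.

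Genes had to reach 1 TPM in 3 or more of the 16 libraries. Their TPM were scaled by size factors (median of ratios) and tested as log2(scaled TPM + 1) with limma 3.58.1 in R 4.3.3, with a variance trend and 1 mean per group over all 16 libraries. Fold changes are on that scale, which understates changes of genes near 1 TPM. Two-sided p-values were adjusted by Benjamini-Hochberg over all genes kept, and genes under 0.05 were called. Values per library were compared by exact permutation with SciPy 1.17.1 in Python 3.11.15. No libraries were identical, and pairs of the 8 libraries correlated at 0.956 to 0.988. The labels do not say more of how animals were sampled than a count per group, so p-values measure the spread between these samples. The fit was tested on simulated data.

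Of 58 gene lists, 57 had a tested member. The comparison, lists and genes were chosen with earlier results of these data known. The rule for named genes took the 12 largest non-overlapping changes each way at 5 scaled TPM or more, up to 4 called members of a list by smallest p, the smallest p of all genes, the most expressed called genes and a set of renin-angiotensin, fetal, collagen, clock and metabolic genes. It gave 205 genes, of which the text names 102, chosen among them after their values were seen; some results are not reported here. Gene positions are from GENCODE M21 and promoters from RefSeq, GRCm38.p6. Alternatives covered scaling, pseudocount, filter, variance model, covariates, transcript length and each library left out. The covariates were the presence of Y-linked transcripts (a sum of at least 5 scaled TPM) and the mean log2 level of 4 atrial genes.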

Additional observations from a re-analysis of the deposited data

Results flagged for a closer look

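In 8 of 120 groups of 5 aged Hap-I western-diet values, 1 per measure, a single heart stood apart from the other 4 by Dixon's test at the 95% level; chance flags about 1 in 20 groups, or 5%. Replicate 5 accounted for 4 of them. It was highest for Gm10800, at 349.6 scaled TPM with 7.83 to 46.8 in the other hearts and for Casq1, at 5.03 with 1.23 to 1.93. It was lowest for Arhgap5, at 3.94 with 6.16 to 6.65 in the others, and for Ulk2, at 11.7 with 18.7 to 21.1. In replicate 4 the atrial genes were highest, with Myl7 at 17.5 scaled TPM and 0.358 to 1.04 in the other hearts. Myl4 was at 11 there with 1.82 to 2.80 in the others, and Sln at 2.14 with at most 0.0547. Replicate 3 was highest for Kcnd3, at 2.60 with 2.0 to 2.1 in the others.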

How the results depend on the processing

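The number of genes called was 2496 as reported, with 1404 higher and 1092 lower. It was 614 (282 higher, 332 lower) without scaling, 1376 (811, 565) in a fit of the 2 groups alone, 1392 (834, 558) with the Y-linked covariate, 853 (494, 359) in the libraries with Y-linked transcripts and 667 (408, 259) with the atrial covariate. At an adjusted p under 0.01 it was 1002 (620, 382), and at 2-fold or more 218 (125, 93). Genes lower numbered 708 with at least 5 TPM in 3 libraries and 1769 with library weights. With 1 library left out the calls ranged from 1256 to 2700, higher from 722 to 1497 and lower from 534 to 1218. Corrections of transcript length combined with a covariate, added after the data were seen, gave 1351 (764, 587) with the Y-linked and 708 (417, 291) with the atrial covariate. In the other settings the numbers of genes called, higher and lower stayed within 1.5 times of those reported. Counts within single lists moved more in some settings.

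Of the 93 named genes that were called, 40 were called in every alternative that gave a value. With 1 library left out, 85 were called in every fit that gave a value. Lmod1, Gdf15 and Agt gave none in some of those fits, because they no longer passed the filter. Under the atrial covariate, to which both genes contribute, Sln turned from -5.17 to 0.16 and Myl4 from -5.78 to 0.0059, or to 0.19 and 0.064 with length added; no other called gene changed sign. Of the 9 not called, Nppa turned from -3.16 to 0.29 with the atrial covariate and 0.35 with length added. The cause was not tested, and depth is unknown. No paired analysis was possible because the labels give no number, animal or batch that links libraries of different groups.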

Other observations

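Of regulators of RNA splicing and RNA stability, 8 of 34 tested genes were higher and 2 lower, with a median log2 fold change of 0.10. Qk, the RNA-binding protein quaking, which guides muscle splicing, had 2.96, 3.51, 3.45, 3.39 and 3.97 scaled TPM in aged Hap-I western-diet hearts, against 1.49, 1.57 and 1.72 in adult C57 hearts (log2 fold change 0.78 ± 0.12 SE, limma adjusted p = 0.000589). Every aged Hap-I western-diet heart lay above the adult C57 hearts. The number higher depended on single libraries: it was 1 without adult C57 replicate 1 or 3, 4 without aged Hap-I western-diet replicate 3, and 5 without aged Hap-I western-diet replicate 2 or 5, any 1 aged Hap-I library or younger Hap-I western-diet replicate 3. The number lower was 1 without adult C57 replicate 1 or 3 or aged Hap-I western-diet replicate 1, 2 or 3.

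Genes of the cytoskeletal regulator list split, with 4 of 35 higher, 5 lower and a median of 0.09. Tns1, the focal adhesion protein tensin, had 102, 88.6, 94.7, 88.1 and 77.9 scaled TPM in aged Hap-I western-diet hearts, against 52.3, 60.4 and 51 in adult C57 hearts (log2 fold change 0.71 ± 0.11 SE, limma adjusted p = 0.000616). Arhgef12, a guanine nucleotide exchange factor, had 21.4, 17.5, 21, 16.7 and 16.9 scaled TPM in aged Hap-I western-diet hearts, against 8.74, 9.2 and 9.18 in adult C57 hearts (log2 fold change 0.96 ± 0.11 SE, limma adjusted p = 0.000143). The groups did not overlap for either gene. Without adult C57 replicate 3 or aged Hap-I western-diet replicate 3 there were 2 members higher, without adult C57 replicate 1 or 3 there was 1 lower, and without aged Hap-I western-diet replicate 2 there were 3.

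Skeletal muscle markers had 1 of 5 higher and 1 lower, with sums of 187 to 399.8 scaled TPM in aged Hap-I western-diet hearts and 80.7 to 191 in adult C57 hearts (exact two-sided permutation p = 0.107). The member that rose was Acta1, given above, which supplied most of the sum in each aged Hap-I western-diet heart. The other 4 members had a negative log2 fold change, and the median was -0.35. None was higher without adult C57 replicate 2, and none lower without replicate 1. Adipocyte markers had 2 of 12 lower, and their sums were 382 to 676 in aged Hap-I western-diet hearts and 731 to 888 in adult C57 hearts (exact two-sided permutation p = 0.0357). The number of adipocyte markers lower was 0 without adult C57 replicate 3, 1 without adult C57 replicate 1 or aged Hap-I western-diet replicate 1 or 3, and 3 without adult C57 replicate 2 or aged Hap-I replicate 3.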
